A study of Mus musculus with 6 samples.

Results

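The subject of this report is the interferon-stimulated genes (ISGs) of cultured lung mesenchymal stromal cells (LMSCs), 49 genes that are known to be induced by interferon and were chosen by name, of 34745 genes with a value. The LMSCs came from MMTV-PyMT mice, in which the mouse mammary tumor virus promoter drives the polyoma middle T oncogene in the mammary gland, so the cells themselves are stroma of a tumor-bearing host. RNA-seq was run on 2 libraries of A-LMSCs (adenoma stage, mice of 6 to 7 weeks by the labels), 2 of PM-LMSCs (pre-metastatic stage, 9 to 10 weeks) and 2 of M-LMSCs (metastatic stage, 13 to 14 weeks), and the study's methods give somewhat older mice for the first and second of these stages. The 6 libraries share the transgene and culture to passage 3. By the study's methods the cells were adherent lung cells depleted of CD45+ cells, and by the labels they grew in DMEM with 10% fetal bovine serum and received no agent. LMSCs of tumor-free mice were not analysed here. The deposited value is FPKM (fragments per kilobase of gene and per mega-fragment mapped), which can be compared between genes because it is per length.

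Type I interferons bind the receptor pair Ifnar1 and Ifnar2, and the kinases Jak1 and Tyk2 then activate transcription factors, among them Stat2, which joins Irf9 in a complex that binds the interferon-stimulated response element (ISRE) of its target genes. Interferon-gamma signals through Ifngr1 and Ifngr2 to the gamma-activated site (GAS) of its targets. Many ISGs encode sensors of viral nucleic acid or proteins that block viral entry, RNA or protein synthesis, and stromal cells keep low basal levels of them without infection.

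Of the 49 ISGs, 28 averaged 1 FPKM or more across the 6 libraries and entered the tests with 10279 genes in all, and 21 had a lower mean. Of these 21, 17 were under 1 FPKM in all 6 libraries, and 3 ISGs had a mean under 0.1 FPKM. The mean used for this choice includes the M-LMSC libraries. Irf7, Zbp1, Usp18, Samd9l and Oas1a averaged under 1 FPKM in A-LMSCs and entered through the later stages, Oas1a through M-LMSCs alone. From the spacing of low values, the libraries were estimated to hold 14.8 to 20.8 mega-fragments, so that the lowest library of 6 ISGs rested on an estimated 3 fragments or fewer. LMSC identity was checked on 12 mesenchymal stromal markers, all of which were tested, with sums of 2109 to 3254 FPKM per library, against sums of 1.53 to 2.86 FPKM for 6 endothelial, 14.6 to 27.3 FPKM for 7 epithelial, 79.7 to 413 FPKM for 12 macrophage and haematopoietic and 106 to 481 FPKM for 5 mesothelial markers. M-LMSC replicate 2 stood apart from the other libraries in the ISGs, as described below. For comparisons with M-LMSCs, the median log2 fold changes and the counts without overlap among the 49 are given with and without it. Most other counts, the calls of the tests and the comparison by ISRE letters include it.

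For the ISGs, promoter sequence was taken from RefSeq (GRCm38.p6), from 250 bases before to 50 bases after the annotated start, and 36 of the 49 genes had an entry. The ISRE was searched as its core letters, GAAA, any 2 bases, then GAAA, on both strands, with overlapping matches allowed. These letters were present in 18 of the 36 promoters (50%), against 3.99% of the 27025 genes with a promoter. The GAS letters, TTCNNNGAA, which read alike on both strands, were in 10 of the 36 (27.8%), against 9.55% of all genes. The promoters shown hold ISRE letters, and 3 of them are of Isg15, Ifit1 and Irgm1. These ISGs passed the test between M- and A-LMSCs, described below, with same-numbered libraries taken as pairs but not with all 6 libraries unpaired. The labels do not give this pairing. The other promoters are of the sensor Ddx58 and of the membrane protein Bst2. All are written on the strand of the gene with the ISRE letters of either strand in capitals.
Isg15 (chr4:156200769-156201068, minus strand): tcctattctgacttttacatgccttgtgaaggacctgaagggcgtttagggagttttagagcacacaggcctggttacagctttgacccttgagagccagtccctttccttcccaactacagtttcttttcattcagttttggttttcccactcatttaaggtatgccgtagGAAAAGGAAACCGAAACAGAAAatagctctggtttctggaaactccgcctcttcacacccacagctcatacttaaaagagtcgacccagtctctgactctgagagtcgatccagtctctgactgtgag
Ifit1 (chr19:34640639-34640938, plus strand): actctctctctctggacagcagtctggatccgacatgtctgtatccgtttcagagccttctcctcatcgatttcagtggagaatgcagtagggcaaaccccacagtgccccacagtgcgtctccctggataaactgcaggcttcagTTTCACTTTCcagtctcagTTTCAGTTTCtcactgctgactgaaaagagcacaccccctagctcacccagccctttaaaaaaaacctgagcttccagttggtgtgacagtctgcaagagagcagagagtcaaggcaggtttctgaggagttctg
Irgm1 (chr11:48871371-48871670, minus strand): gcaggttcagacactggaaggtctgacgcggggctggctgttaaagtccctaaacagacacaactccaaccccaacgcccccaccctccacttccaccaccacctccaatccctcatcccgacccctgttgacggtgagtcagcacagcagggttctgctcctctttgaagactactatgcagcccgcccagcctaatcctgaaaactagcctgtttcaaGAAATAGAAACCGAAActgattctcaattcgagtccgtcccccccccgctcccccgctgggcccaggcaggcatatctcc
Ddx58 (chr4:40239776-40240075, minus strand): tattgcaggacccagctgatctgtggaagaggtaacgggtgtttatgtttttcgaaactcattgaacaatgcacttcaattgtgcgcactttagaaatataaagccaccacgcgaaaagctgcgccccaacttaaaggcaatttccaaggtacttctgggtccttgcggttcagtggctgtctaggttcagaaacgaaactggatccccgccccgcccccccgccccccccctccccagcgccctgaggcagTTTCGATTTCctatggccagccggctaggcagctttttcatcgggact
Bst2 (chr8:71537423-71537722, minus strand): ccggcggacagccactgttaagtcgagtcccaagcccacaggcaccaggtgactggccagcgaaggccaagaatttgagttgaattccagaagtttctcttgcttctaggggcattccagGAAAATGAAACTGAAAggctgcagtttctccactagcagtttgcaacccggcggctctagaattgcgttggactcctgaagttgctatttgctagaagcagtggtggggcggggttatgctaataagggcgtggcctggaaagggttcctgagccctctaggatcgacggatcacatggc
The Isg15 promoter held 3 overlapping matches that began between -78 and -66, counted from the start as +1, and Ifit1 held separate matches that began at -104 and -85. In Irgm1 the 2 matches overlapped and began at -30 and -24, and in Bst2 they overlapped and began at -130 and -124. Ddx58 had its match just after the start, at +3. A match of letters is a description of the sequence and does not show that a factor bound there.

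Most ISGs had their highest level in M-LMSCs. The mean FPKM was higher in M- than in A-LMSCs for 44 of the 49 ISGs, against 57.1% of the 21698 genes with a value above 0. Both M-LMSC libraries exceeded both A-LMSC libraries in 34 of the 49, among them Isg15, Ifit1, Ddx58, Irgm1, Parp9 and Stat2, against 24.8% of the 21698 genes. No ISG had both M-LMSC libraries below both A-LMSC libraries. Among the 28 ISGs tested the count was 18, against 27.1% of all genes tested, and the median log2 fold change, on the log2(FPKM + 1) scale, was 0.44 against 0.03 for all genes tested, with ISGs from -0.13 to 1.51. On the same scale without the filter, the median of all 49 ISGs was 0.33, against 0.01 for the 21698 genes. This scale understates fold differences at low FPKM. In bulk RNA, fewer or more cells of a type and less or more RNA per cell cannot be told apart.

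With all 6 libraries and no pairing, no single ISG passed the test between M- and A-LMSCs. In limma's fit with 1 mean per stage, with Benjamini-Hochberg adjustment across the 10279 genes and a threshold of 0.05, 0 of the 28 ISGs passed, against 0.0681% of genes tested. At an unadjusted p under 0.05, 13 of the 28 were higher and 0 lower, against 7.68% of genes tested that were higher. The labels pair no libraries across stages, and same-numbered libraries were taken as pairs because their deviations from the stage means correlated in these data. With the replicate number as a block, 4 of the 28 ISGs passed, against 3.92% of genes tested. They were Isg15, Ifit1, Irgm1 and Ifi27l2b, all higher in M-LMSCs. Without M-LMSC replicate 1, and with no pairing, the median log2 fold change of the 28 was 0.61. Without M-LMSC replicate 2 it was 0.22. In each of these fits the remaining M-LMSC library is assumed to vary like the other stages.

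The difference between PM- and A-LMSCs was smaller at the median. The mean was higher in PM-LMSCs for 36 of the 49 ISGs, against 53.5% of genes above 0. Both PM-LMSC libraries exceeded both A-LMSC libraries in 15 of the 28 tested, against 19.6% of genes tested, and were below them in 3, Irf1, Isg20 and Gbp2, against 19.7% of genes tested. The median log2 fold change of the 28 was 0.19, against 0.01 for all genes tested, with a range from -0.41 to 1.82. The adjusted p was under 0.05 for 1 ISG, Ifi27l2b, against 0.0389% of genes tested, and also for 1 with the replicate block, against 0.292%. At an unadjusted p under 0.05, 3 were higher and 0 lower, against 3.92% of genes tested that were higher.

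From PM- to M-LMSCs the mean was higher for 40 of the 49 ISGs, against 49.4% of genes above 0. The M-LMSC libraries both exceeded both PM-LMSC libraries in 8 of the 28 tested, against 17.8% of genes tested, and the median log2 fold change was 0.27, against -0.00 for all genes tested. Without M-LMSC replicate 2 this median was 0.059, and without M-LMSC replicate 1 it was 0.50. In limma's test 0 of the 28 had an adjusted p under 0.05, against 0.0292% of genes tested, and with the replicate block 0, against 0.418%. At an unadjusted p under 0.05, 7 were higher, against 4.48% of genes tested, and 2 lower. The mean was higher at each step, from A- to PM- to M-LMSCs, in 17 of the 28 ISGs, against 24.2% of genes tested. The comparisons share libraries, so their counts are not independent of each other.

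**Figure D1:**
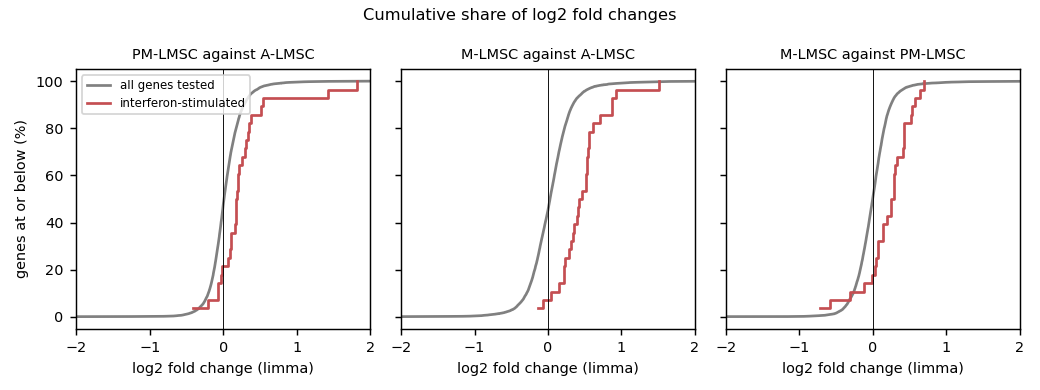
Cumulative share of genes (vertical axis, percent) at or below each log2 fold change (horizontal axis, limma on log2(FPKM + 1)) for the 28 tested ISGs (red) and all 10279 genes tested (grey), in each of the 3 comparisons. The red curve lies furthest to the right of the grey one for M-LMSC against A-LMSC, where the medians were 0.44 and 0.03. A few genes lie beyond the ends of the axis.

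The libraries of M-LMSCs did not share these levels equally. M-LMSC replicate 2 was the highest of the 6 libraries in 36 of the 49 ISGs, and in 21 of the 28 tested, a place it held in 16.6% of all genes tested. M-LMSC replicate 1 was the highest in 4 ISGs, although it was so in 25.1% of genes tested. Relative to the A-LMSC mean, the median of the 28 ISGs on the log2 scale was 0.17 and 0.25 in the PM-LMSC libraries, 0.22 in M-LMSC replicate 1 and 0.61 in M-LMSC replicate 2, while the median of all genes tested was 0.03 in replicate 1 and 0.01 in replicate 2 of the M-LMSCs. The M-LMSC replicates differed by more than the M to A log2 fold change in 16 of the 28 ISGs. Between the replicates, the median log2 difference of the 28 ISGs (replicate 2 minus replicate 1) was 0.43 in M-LMSCs, 0.07 in PM-LMSCs and 0.01 in A-LMSCs.

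The higher levels in M-LMSCs were seen in each M-LMSC library, to different degrees. Without M-LMSC replicate 2, the remaining M-LMSC library exceeded both A-LMSC libraries in 35 of the 49 ISGs, against 45.8% of genes above 0, and the median log2 fold change of the 28 was 0.22. Without M-LMSC replicate 1 these values were 43 of 49, 39.3% and 0.61. Between libraries with the same replicate number, 38 of the 49 ISGs were higher in M- than in A-LMSCs for replicate 1, with a median difference of 0.19 for the 28 tested, and 48 of 49 for replicate 2, with a median of 0.64. Of all genes tested, 53% and 52.9% were higher in M-LMSCs, with medians of 0.03 and 0.02, respectively.

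**Figure D2:**
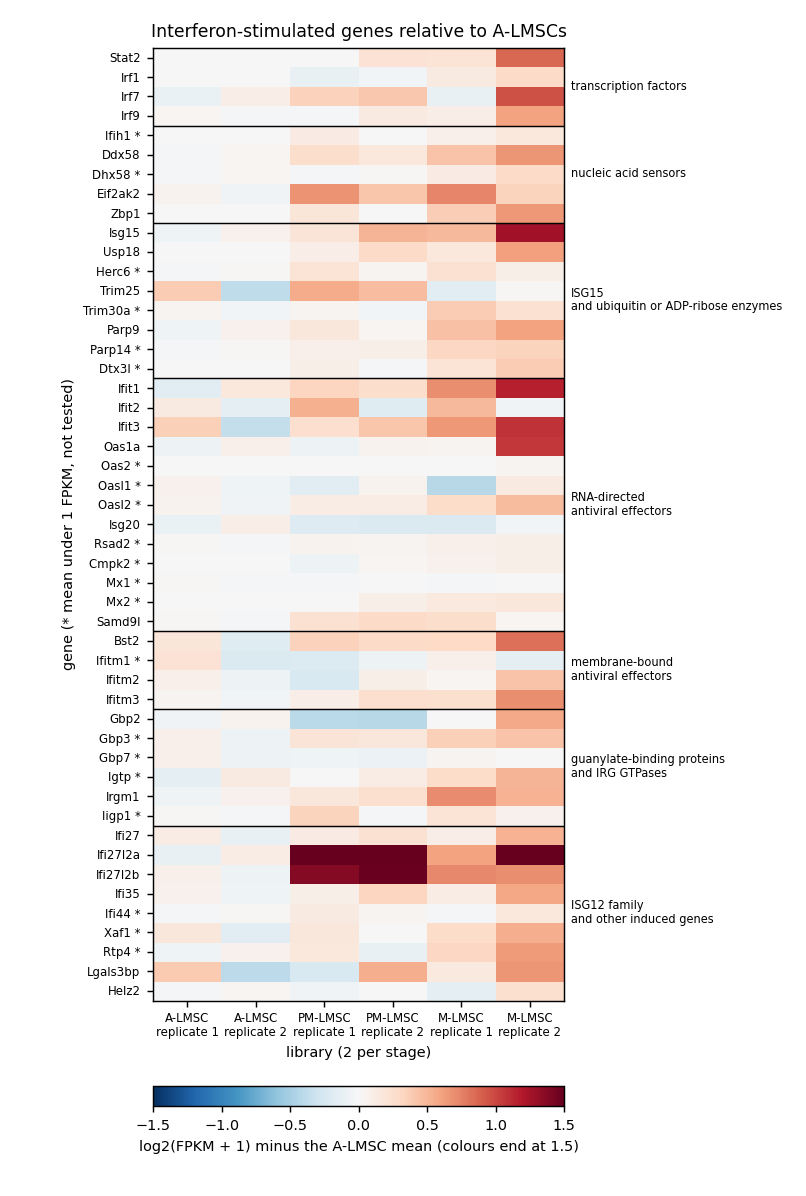
Each row is an ISG, grouped by role, and each column 1 of the 6 libraries. Colour gives log2(FPKM + 1) minus the mean of the A-LMSC libraries, red for higher and blue for lower, with colours ending at 1.5. The column of M-LMSC replicate 2 holds the most red, and the darkest cells are those of the ISG12 genes Ifi27l2a and Ifi27l2b.

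The 4 transcription factors of the set are those that carry the interferon signal to the DNA. Levels are given for replicate 1 and then replicate 2 of each stage. Stat2, which the type I receptor activates, was at 2.59 and 2.61 in the A, 2.58 and 3.17 in the PM, and 3.14 and 5.55 FPKM in the M libraries. Irf9, which gives the complex its contact with the ISRE, was at 2.74 and 2.56 in the A, 2.62 and 3.01 in the PM, and 2.91 and 4.54 FPKM in the M libraries. Both were highest in M-LMSC replicate 2, and M-LMSC replicate 1 exceeded the A-LMSC libraries by a smaller margin. Irf7, the factor that amplifies production of interferon-alpha, was at 0.829 and 1.10 in the A, 1.5 and 1.60 in the PM, and 0.810 and 2.80 FPKM in the M libraries. Its M-LMSC libraries were thus the lowest and the highest of the 6, while both PM-LMSC libraries were above both A-LMSC libraries. Irf1, which responds strongly to interferon-gamma, was at 1.95 and 1.98 in the A, 1.74 and 1.89 in the PM, and 2.26 and 2.62 FPKM in the M libraries, highest in both M-LMSC libraries and lowest in both PM-LMSC libraries. No transcription factor passed the test in any comparison, with M to A log2 fold changes from 0.21 (Irf1) to 0.53 (Stat2), whose adjusted p from limma was 0.34.

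Among the 5 sensors of nucleic acid, all had both M-LMSC libraries above both A-LMSC libraries, which 24.8% of genes above 0 did. Ddx58, which encodes the viral RNA sensor RIG-I, was at 2.19 and 2.30 in the A, 2.89 and 2.62 in the PM, and 3.35 and 4.14 FPKM in the M libraries (log2 fold change 0.54, SE 0.13, limma adjusted p = 0.15 for M against A). Its order of stages had no overlap at either step. Zbp1, a sensor of left-handed nucleic acid that can trigger cell death, was at 0.884 and 0.910 in the A, 1.15 and 0.899 in the PM, and 1.45 and 1.98 FPKM in the M libraries (log2 fold change 0.51, SE 0.14, limma adjusted p = 0.19). Eif2ak2, which encodes the RNA-activated kinase PKR, was at 3.65 and 3.30 in the A, 6.14 and 4.97 in the PM, and 6.42 and 4.61 FPKM in the M libraries. It differed from the other sensors in that the libraries of PM- and M-LMSCs overlapped and all lay above A-LMSCs. The log2 fold change was 0.55 for PM and 0.53 for M against A, with adjusted p of 0.57 and 0.25 in limma's fit. Ifih1, which encodes the sensor MDA5, was at 0.170 and 0.167 FPKM (A), 0.275 and 0.161 FPKM (PM), and 0.230 and 0.299 FPKM (M). Dhx58, their regulator, was at 0.362 and 0.418 FPKM (A), 0.371 and 0.403 FPKM (PM), and 0.511 and 0.689 FPKM (M). Both were highest in M-LMSC replicate 2.

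Isg15 encodes the ubiquitin-like protein that is joined to other proteins during the interferon response. On chromosome 4 (GRCm38, chr4:156199424-156200818), its level was 8.57 and 9.52 in the A, 10.5 and 13.2 in the PM, and 13.0 and 23.0 FPKM in the M libraries. All 4 later libraries were above both A-LMSC libraries, and the mean was 9.04 ± 0.676 FPKM (SD, n = 2) in A-LMSCs and 18 ± 7.08 FPKM (SD, n = 2) in M-LMSCs. The log2 fold change for M against A was 0.87 (SE 0.25), with an adjusted p from limma of 0.21, which with the replicate block was 0.037. Over the alternatives tried it ran from 0.032 to 0.73. M-LMSC replicate 2 was 1.77 times replicate 1, and the other 5 libraries lay between 8.57 and 13.2 FPKM. Another annotated locus shares 482 bases with Isg15 at 95.2% identity, so some of its fragments could have been assigned to either.

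Of the enzymes that attach or remove ISG15, ubiquitin or ADP-ribose, 7 members of this group of 8, Isg15 included, had both M-LMSC libraries above both A-LMSC libraries, which held for 24.8% of genes above 0. Usp18, which removes ISG15 from proteins and dampens the type I receptor, was at 0.821 and 0.845 in the A, 0.962 and 1.24 in the PM, and 1.05 and 1.82 FPKM in the M libraries. Parp9, an ADP-ribosyltransferase that works as a pair with the ubiquitin ligase Dtx3l, was at 1.36 and 1.59 in the A, 1.78 and 1.53 in the PM, and 2.35 and 2.75 FPKM in the M libraries (log2 fold change 0.52, SE 0.13, limma adjusted p = 0.15). Dtx3l was at 0.847 and 0.820 FPKM (A), 0.952 and 0.790 FPKM (PM), and 1.12 and 1.40 FPKM (M). Parp9 and Dtx3l lie head to head on chromosome 16 with 458 bases of shared exon on opposite strands, and the use of strand in the counting is not given in the sources used here, so their fragments may be mixed. Parp14, a related ADP-ribosyltransferase, was at 0.210 and 0.241 FPKM (A), 0.297 and 0.304 FPKM (PM), and 0.525 and 0.550 FPKM (M). Herc6, a ligase for ISG15 in the mouse, was at 0.316 and 0.344 FPKM (A), 0.528 and 0.373 FPKM (PM), and 0.563 and 0.408 FPKM (M). Trim30a, a regulator of inflammatory signaling, was at 0.092 and 0.033 FPKM (A), 0.091 and 0.036 FPKM (PM), and 0.382 and 0.242 FPKM (M), and its lowest library rested on an estimated 2 fragments. Both M-LMSC libraries were highest in Parp14 and Trim30a, whereas the libraries of Herc6 overlapped between PM- and M-LMSCs. Trim25, the ubiquitin ligase that acts on RIG-I, was the exception, at 6.26 and 3.31 in the A, 7.22 and 6.73 in the PM, and 4.01 and 4.68 FPKM in the M libraries. Its A-LMSC libraries lay further apart than the means of M- and A-LMSCs, and both PM-LMSC libraries were the highest.

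Ifit1, Ifit2 and Ifit3 encode proteins that bind viral RNA or the translation machinery and lie together on chromosome 19. Ifit1 (chr19:34640871-34650009) was at 0.885 and 1.33 in the A, 1.63 and 1.52 in the PM, and 2.39 and 3.72 FPKM in the M libraries, with no overlap between any of the stages. Its M to A log2 fold change was 0.93 (SE 0.19), with an adjusted p from limma of 0.12, which became 0.025 with the replicate block and ran from 0.025 to 0.51 over the alternatives. Ifit3 was at 1.87 and 0.753 in the A, 1.67 and 1.98 in the PM, and 2.53 and 3.76 FPKM in the M libraries. Both of its M-LMSC libraries were above the other 4, but its A-LMSC libraries differed by a larger amount than the A- and PM-LMSC means, and Ifit3 shares 1700 bases at 97.8% identity with Ifit3b, so its values are uncertain. Ifit2 was at 2.15 and 1.62 in the A, 3.18 and 1.54 in the PM, and 3.03 and 1.77 FPKM in the M libraries. In this gene the replicate 1 libraries were above the replicate 2 libraries at every stage, and stages overlapped.

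The other effectors directed at RNA were mostly near or under 1 FPKM. Oas1a, a synthetase of the oligoadenylates that activate RNase L, was at 0.713 and 0.909 in the A, 0.718 and 0.868 in the PM, and 0.866 and 2.78 FPKM in the M libraries. Only M-LMSC replicate 2 stood out, by 3.21 times over replicate 1, and the gene shares 1861 bases at 97.6% identity with Oas1g. Its relative Oasl1 was at 0.763 and 0.612 FPKM (A), 0.496 and 0.742 FPKM (PM), and 0.259 and 0.851 FPKM (M). M-LMSC replicate 1 had the lowest Oasl1 and replicate 2 the highest. Oasl2 was at 0.206 and 0.117 FPKM (A), 0.259 and 0.258 FPKM (PM), and 0.400 and 0.607 FPKM (M), higher in both M-LMSC libraries than in the other 4. Isg20, an RNA exonuclease, was at 1.99 and 2.42 in the A, 1.79 and 1.75 in the PM, and 1.74 and 2.10 FPKM in the M libraries. Samd9l, a restrictor of translation and growth, was at 0.966 and 0.933 in the A, 1.28 and 1.39 in the PM, and 1.33 and 0.994 FPKM in the M libraries. Isg20 had its highest library in A-LMSCs, and Samd9l in PM-LMSCs. Mx2, of a family of antiviral GTPases but annotated as a polymorphic pseudogene, was at 0.076 and 0.068 FPKM (A), 0.08 and 0.137 FPKM (PM), and 0.191 and 0.202 FPKM (M). Rsad2, which encodes the radical enzyme viperin, was at 0.03 and 0.012 FPKM (A), 0.056 and 0.052 FPKM (PM), and 0.075 and 0.087 FPKM (M). Its neighbour on chromosome 12, Cmpk2, a mitochondrial nucleotide kinase, was at 0.09 and 0.107 FPKM (A), 0.042 and 0.118 FPKM (PM), and 0.151 and 0.170 FPKM (M). In these 3 genes both M-LMSC libraries were above both A-LMSC libraries, at an estimated 1 to 12 fragments per library. Oas2, another synthetase, was at 0.018 and 0.014 FPKM (A), 0.008 and 0.023 FPKM (PM), and 0.022 and 0.044 FPKM (M). Mx1 was listed at 0 in 3 libraries and was at most 0.018 FPKM in the other 3.

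The most abundant ISGs, Ifitm3 and Ifitm2, encode proteins that act at membranes. Ifitm3, which blocks fusion of viruses with the endosome, was at 259.9 and 246 in the A, 271 and 302 in the PM, and 298 and 411 FPKM in the M libraries (log2 fold change 0.47, SE 0.17, limma adjusted p = 0.29). Ifitm2 was at 248 and 223 in the A, 201 and 249 in the PM, and 239 and 316 FPKM in the M libraries, with PM-LMSC replicate 1 the lowest, and near-identical copies of it are annotated elsewhere. Bst2, which encodes tetherin, the protein that holds budding virus at the cell surface, was at 39.1 and 30.2 in the A, 43.8 and 42.3 in the PM, and 42.6 and 61.5 FPKM in the M libraries (log2 fold change 0.56, SE 0.20, limma adjusted p = 0.28). For both Ifitm3 and Bst2 all 4 later libraries exceeded both A-LMSC libraries, and M-LMSC replicate 2 was highest. Ifitm1 was far below these, at 0.404 and 0.044 FPKM (A), 0.052 and 0.145 FPKM (PM), and 0.278 and 0.092 FPKM (M).

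Irgm1, which encodes an immunity-related GTPase that controls the other members of its family at membranes, differed from most ISGs in that its M-LMSC libraries were close and replicate 1 was the higher. The gene lies at chr11:48861968-48871683 and was at 7.18 and 7.89 in the A, 8.62 and 9.07 in the PM, and 12.9 and 11.3 FPKM in the M libraries. Its stages did not overlap at either step. The stage means, in the order A, PM and M, were 7.53 ± 0.495, 8.85 ± 0.312 and 12.1 ± 1.18 FPKM (SD, n = 2 each). The M to A log2 fold change was 0.62 (SE 0.12), with an adjusted p from limma of 0.11, 0.040 with the replicate block and up to 0.63 over the alternatives. The related GTPases Igtp and Iigp1 act on vacuoles that hold parasites. Igtp was at 0.337 and 0.625 FPKM (A), 0.462 and 0.590 FPKM (PM), and 0.791 and 1.11 FPKM (M), highest in both M-LMSC libraries. Iigp1 was at 0.061 and 0.037 FPKM (A), 0.325 and 0.04 FPKM (PM), and 0.213 and 0.097 FPKM (M), with the highest library in PM-LMSCs.

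Gbp2, a guanylate-binding protein that coats vacuoles of intracellular pathogens, was the abundant ISG with both PM-LMSC libraries below both A-LMSC libraries. It was at 46.1 and 49.4 in the A, 36.0 and 35.5 in the PM, and 48.0 and 71.1 FPKM in the M libraries. Both PM-LMSC libraries lay below all 4 others. The log2 fold change was -0.41 for PM against A, with an adjusted p of 0.79 in limma's fit, and 0.69 for M against PM, the largest of the 28 ISGs, with an adjusted p of 0.37. Gbp3 was at 0.285 and 0.151 FPKM (A), 0.391 and 0.363 FPKM (PM), and 0.558 and 0.636 FPKM (M). Gbp7 was at 0.198 and 0.07 FPKM (A), 0.083 and 0.067 FPKM (PM), and 0.166 and 0.129 FPKM (M). Gbp3, unlike Gbp2, was higher in all 4 later libraries than in A-LMSCs.

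**Figure D3:**
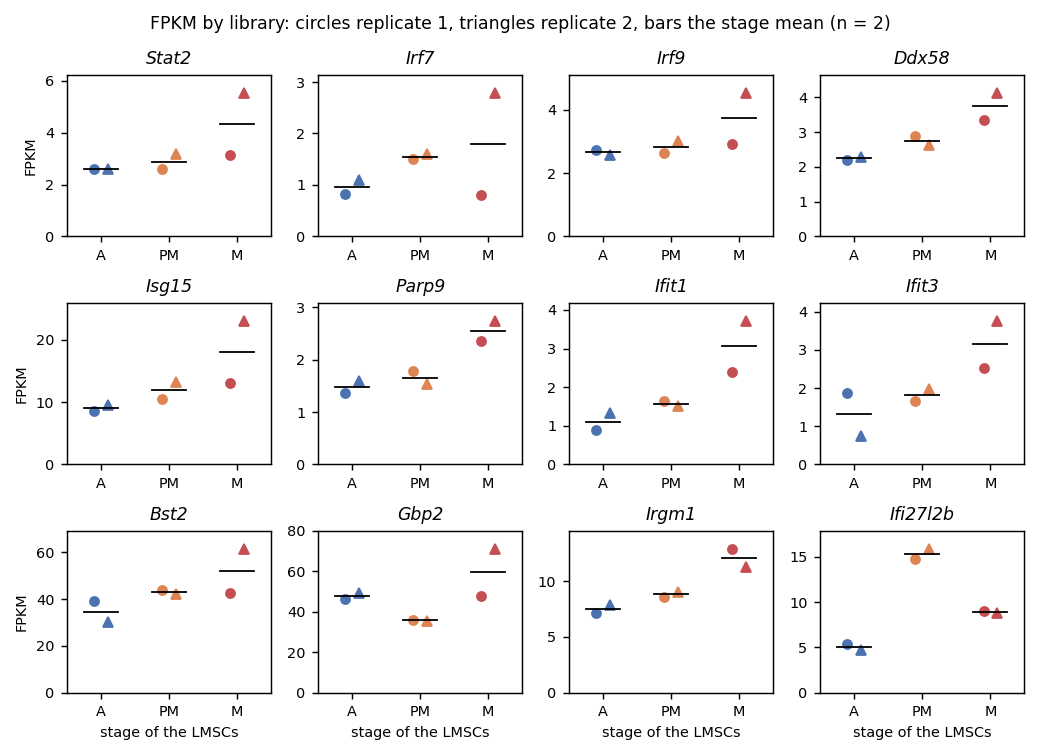
FPKM (vertical axes, from 0, scaled per gene) of 12 ISGs in A-, PM- and M-LMSCs (horizontal axis), with circles for replicate 1, triangles for replicate 2 and a bar for the stage mean (n = 2). Ifi27l2b peaks in PM-LMSCs and Gbp2 is lowest there, and M-LMSC replicate 2 is far above replicate 1 in Irf7. The libraries of Ifit1, Irgm1 and Ddx58 follow the order of the stages without overlap, and the means of most other genes shown also follow this order.

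The ISG12 genes Ifi27, Ifi27l2a and Ifi27l2b encode small hydrophobic proteins of mitochondrial and nuclear membranes and are neighbours on chromosome 12 (GRCm38, chr12:103434211-103457223). Ifi27l2a and Ifi27l2b had the largest log2 fold changes of the tested ISGs between PM- and A-LMSCs. Ifi27l2b was at 5.35 and 4.76 in the A, 14.7 and 15.9 in the PM, and 8.96 and 8.77 FPKM in the M libraries. The replicates were close at each stage, with means of 5.06 ± 0.422, 15.3 ± 0.820 and 8.86 ± 0.135 FPKM (SD, n = 2 each), and the 3 stages did not overlap. For PM against A the log2 fold change was 1.43 (SE 0.11), and Ifi27l2b rose with an adjusted p from limma of 0.020, 0.0099 with the replicate block. The call was lost without the filter on low values (adjusted p = 0.075 from limma) and without any single A- or PM-LMSC library (up to 0.27). For M against A the log2 fold change was 0.71, with an adjusted p from limma of 0.096, 0.025 with the block and up to 0.63 over the alternatives. From PM to M it was -0.73, the lowest of the 28 ISGs, with an adjusted p of 0.19 from limma and 0.054 with the block.

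Its neighbour Ifi27l2a was at 2.69 and 3.33 in the A, 10.8 and 15.8 in the PM, and 5.09 and 20.2 FPKM in the M libraries. All 4 later libraries exceeded both A-LMSC libraries, but the M-LMSC libraries differed 3.96-fold. The log2 fold change was 1.82 (SE 0.53) for PM and 1.51 for M against A, the largest of the 28 in both comparisons, with adjusted p from limma of 0.52 and 0.27. When only A- and PM-LMSCs were fitted, the former became 0.030, and it ran from 0.029 to 1 over the alternatives. Ifi27, the third gene of the row, was more abundant and varied less, at 37.5 and 31.9 in the A, 37.8 and 40.6 in the PM, and 37.0 and 50.1 FPKM in the M libraries, so that the neighbours did not share 1 pattern.

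The remaining ISGs of the set were measured as follows. Ifi35 was at 8.76 and 7.98 in the A, 8.93 and 10.7 in the PM, and 9.11 and 13.0 FPKM in the M libraries. Lgals3bp, which encodes a secreted glycoprotein that binds galectins, was at 12.7 and 6.91 in the A, 7.89 and 14.2 in the PM, and 10.5 and 15.5 FPKM in the M libraries, with replicate 1 the higher in A-LMSCs and replicate 2 the higher at the later stages. Helz2, a helicase that acts as a coactivator of nuclear receptors, was at 1.51 and 1.59 in the A, 1.46 and 1.53 in the PM, and 1.31 and 2.00 FPKM in the M libraries. None of these 3 passed the test. Rtp4, Xaf1 and Ifi44 had means under 1 FPKM. Rtp4, a receptor-transporting protein, was at 0.488 and 0.617 FPKM (A), 0.731 and 0.440 FPKM (PM), and 0.922 and 1.42 FPKM (M). Xaf1, which promotes cell death, was at 0.848 and 0.465 FPKM (A), 0.856 and 0.655 FPKM (PM), and 0.985 and 1.40 FPKM (M). Ifi44 was at 0.096 and 0.122 FPKM (A), 0.216 and 0.142 FPKM (PM), and 0.096 and 0.233 FPKM (M). In Rtp4 and Xaf1 both M-LMSC libraries were above both A-LMSC libraries.

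**Figure D4:**
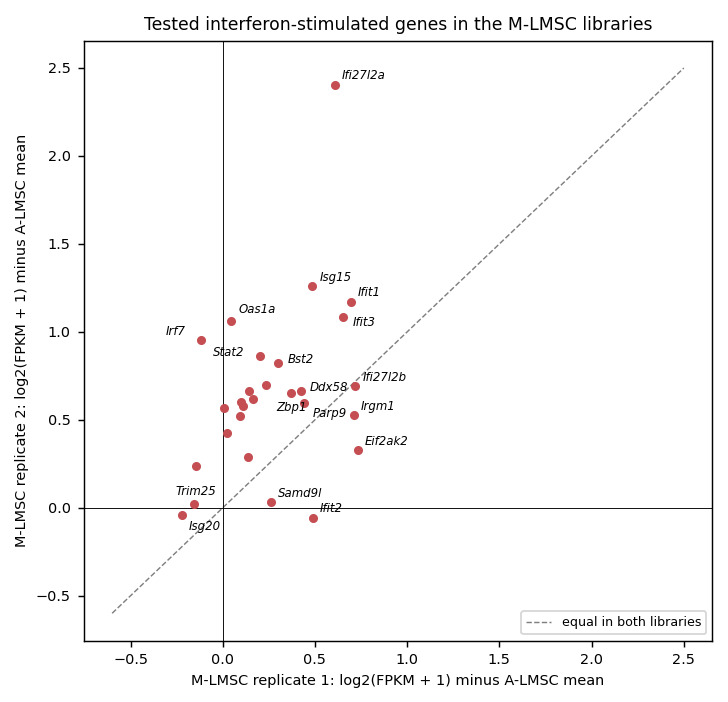
Each point is 1 of the 28 tested ISGs, by its log2(FPKM + 1) minus the A-LMSC mean in M-LMSC replicate 1 (horizontal axis) and replicate 2 (vertical axis), with a dashed line where both are equal. In 23 of the 28 replicate 2 is the higher, and Ifi27l2b, Irgm1, Eif2ak2, Samd9l and Ifit2 lie below the line.

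The ISGs with ISRE letters in the promoter had the higher median difference between M- and A-LMSCs. Of the tested ISGs with a promoter, the 12 with the letters had M to A log2 fold changes of 0.22 to 0.93 with a median of 0.55, and the 10 without had changes of -0.13 to 0.42 with a median of 0.22. The promoters of Isg15, Ifit1, Irgm1, Ddx58 and Bst2 shown above belong to the first set, together with those of Stat2, Eif2ak2, Ifit3, Oas1a, Ifitm2, Ifitm3 and Gbp2. Irf1, Irf7, Irf9, Trim25, Ifit2, Isg20, Samd9l, Ifi35, Lgals3bp and Helz2 had no match in this window. No test was made between the sets. Ifi27l2a and Ifi27l2b were among the tested ISGs with no promoter in the table.

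Interferon itself was hardly measured in these cells. Of 10 interferon ligand genes, 8 were listed at 0 in all 6 libraries, while Ifnb1, the interferon-beta gene, was at 0.16 FPKM in M-LMSC replicate 1 and Ifng at 0.052 FPKM in PM-LMSC replicate 2, and both were listed at 0 elsewhere. M-LMSC replicate 2, with the highest ISG levels, had no value above 0 for any of the 10. A value listed at 0 can be a failed estimate as well as no fragments.

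The receptors and kinases of the pathway were expressed at every stage. Of 6 receptor genes 5 were tested, and the 6 summed to 48.1 to 56.4 FPKM per library. Ifnar1, the signaling chain of the type I receptor, was at 8.42 and 8.60 in the A, 8.35 and 7.62 in the PM, and 8.59 and 9.06 FPKM in the M libraries. Ifngr2, of the interferon-gamma receptor, was at 21.2 and 20.7 in the A, 18.6 and 20.5 in the PM, and 22.9 and 21.6 FPKM in the M libraries. Ifngr1, its ligand-binding chain, had an M to A log2 fold change of 0.14, the largest of the 5 tested. Ifnlr1, the chain specific to interferon-lambda, had too low a mean for the test and was at 0.092 and 0.055 FPKM (A), 0.113 and 0.135 FPKM (PM), and 0.173 and 0.274 FPKM (M), highest in both M-LMSC libraries. Of the 6 receptor genes, 4 had both PM-LMSC libraries below both A-LMSC libraries, and 1 had them above, against 19.7% and 19.6% of genes tested. In 5 of the 6, both M-LMSC libraries exceeded both PM-LMSC libraries, which 17.8% of genes tested did. Both M-LMSC libraries exceeded both A-LMSC libraries in 2 of the 6, against 24.8% of genes above 0, and were below them in 0. Of the receptors, 0 of 5 passed limma's test in any comparison, with or without the block, and 0 had an unadjusted p under 0.05. Of 8 signal relay genes 7 were tested and 0 passed limma's test in any comparison. Irf5 had an unadjusted p under 0.05 for M against A and Irf2 for M against PM, both higher in M-LMSCs. Of all genes tested, 7.68% and 4.48% were higher at this level in these comparisons. Irf5, a factor of the innate response, was at 1.24 and 1.13 in the A, 1.72 and 2.43 in the PM, and 1.74 and 3.45 FPKM in the M libraries, with all 4 later libraries above both A-LMSC libraries. Its M to A log2 fold change was 0.68. Jak1, the kinase shared by the receptors, was at 26.6 and 26.9 in the A, 31.2 and 25.5 in the PM, and 36.7 and 30.9 FPKM in the M libraries. Tyk2 was lower at each later stage, with means of 6.86 (A), 6.18 (PM) and 5.75 FPKM (M). Its stages did not overlap at either step, and its M to A log2 fold change was -0.22. Irf3 had both M-LMSC libraries below both PM-LMSC libraries (log2 fold change -0.37). Of the 8 relay genes, 5 had both M-LMSC libraries above both A-LMSC libraries, against 24.8% of genes above 0, and 1, Tyk2, had them below.

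Of 5 feedback inhibitors, all were tested, and 0 passed limma's test or had an unadjusted p under 0.05 in any comparison. Socs3, an inhibitor of cytokine receptors, was at 9.66 and 9.04 in the A, 10.1 and 9.61 in the PM, and 9.49 and 16.3 FPKM in the M libraries, with only M-LMSC replicate 2 apart. Socs1, the main brake on interferon receptors, was at 3.15 and 3.04 in the A, 4.49 and 2.73 in the PM, and 2.33 and 4.50 FPKM in the M libraries. Of 10 adaptors of nucleic acid sensing, 7 were tested, with 0 past limma's test and 0 at an unadjusted p under 0.05. Tmem173, which encodes STING, was at 27.3 and 25.4 in the A, 22.1 and 25 in the PM, and 21.1 and 28.5 FPKM in the M libraries. Mavs, the adaptor of RIG-I, was at 10.3 and 8.25 in the A, 9.26 and 8.20 in the PM, and 8.14 and 8.72 FPKM in the M libraries. These adaptors had a median log2 difference from the A-LMSC mean of -0.02 and 0.07 in the M-LMSC libraries.

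Some markers of other cell types moved with the stages as well. The 12 macrophage and haematopoietic markers summed to 137 and 129 in the A, 173 and 79.7 in the PM, and 413 and 300.2 FPKM in the M libraries. Of the 12, 11 had both M-LMSC libraries above both A-LMSC libraries, against 24.8% of genes above 0. Between M- and A-LMSCs 0 of the 7 tested passed limma's test, 7 had an unadjusted p under 0.05 and 6 passed with the replicate block, all higher in M-LMSCs. Of all genes tested, 7.68% were higher at an unadjusted p under 0.05, and 3.92% passed with the block. Lyz2, the lysozyme of macrophages, was at 115 and 106 in the A, 147 and 60.6 in the PM, and 362 and 249.7 FPKM in the M libraries. Tyrobp, a myeloid receptor adaptor, was at 4.59 and 4.25 in the A, 4.92 and 3.12 in the PM, and 13.1 and 12.1 FPKM in the M libraries. Ptprc, which encodes CD45, the antigen the cells were depleted of, was at 0.025 to 0.099 FPKM. The median log2 difference of the 12 from the A-LMSC mean was 0.85 in M-LMSC replicate 1 and 0.88 in replicate 2. The part of such cells in the ISG levels was not tested.

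The 5 mesothelial markers summed to 106 and 159 in the A, 283 and 397 in the PM, and 189.7 and 481 FPKM in the M libraries, so that the order of the later libraries was that of Ifi27l2a. In limma's test of M- against A-LMSCs 4 of them passed with the replicate block, against 3.92% of genes tested, and 0 without it. At an unadjusted p under 0.05 there were 4, all higher, against 7.68% of genes tested that were higher. Msln, mesothelin, was at 8.87 and 12.7 in the A, 33.8 and 47.7 in the PM, and 12.6 and 48.2 FPKM in the M libraries. Of 7 epithelial markers, which summed to 14.6 to 27.3 FPKM, Krt19 fell by 1.53 on the log2 scale between A- and M-LMSCs (limma adjusted p = 0.039), while Krt8 and Krt18 were higher in all 4 later libraries. Krt8 was at 0.824 and 2.41 in the A, 3.94 and 8.68 in the PM, and 2.91 and 10.4 FPKM in the M libraries. With no pairing the limma adjusted p of Krt8 was 0.72 for PM and 0.33 for M against A, and with the replicate block it rose in both, with 0.037 and 0.017. Krt18 gave 0.44 and 0.14 in limma without the block, and also rose with it (0.037 and 0.016). Epcam was listed at 0 in the A- and PM-LMSC libraries and was at 0.33 and 0.47 FPKM in M-LMSCs. Of 6 endothelial markers, 3 had both M-LMSC libraries above both A-LMSC libraries, against 24.8% of genes above 0, and 1, Cdh5, had them below. Only 1 was tested, Kdr, a receptor for vascular endothelial growth factor. Kdr was at 1.11 and 1.17 in the A, 1.31 and 1.44 in the PM, and 2.23 and 2.31 FPKM in the M libraries (limma adjusted p = 0.10 for M against A, 0.028 with the block). Whether these cells took part in the ISG levels was not tested.

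**Figure D5:**
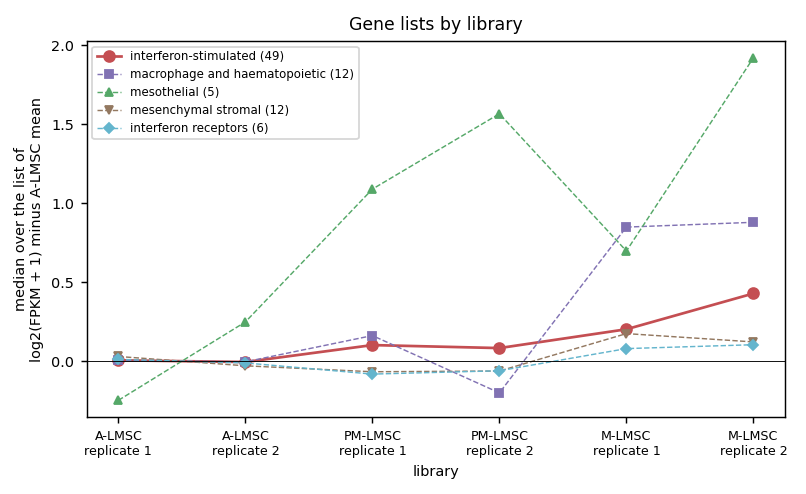
Median over each gene list of log2(FPKM + 1) minus the A-LMSC mean (vertical axis) in each of the 6 libraries (horizontal axis), for the 49 ISGs (solid red line) and 4 other lists (dashed lines), with the number of genes in brackets. The ISGs reach 0.20 and 0.43 in the M-LMSC libraries, the haematopoietic markers are at 0.85 and 0.88 there, and the mesothelial markers are high in PM-LMSCs and in M-LMSC replicate 2.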

How the data were processed

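RNA was measured in 6 libraries, 2 per stage. The authors deposited FPKM values for 34745 genes, 1 column per library. The submitters' processing notes list TopHat2 2.0.9 and mm10, and the counter, annotation and use of strand are not given in the sources used here. FPKM are not counts, so no count model was used, and the depth of 14.8 to 20.8 mega-fragments is an estimate. Other libraries of the study were not analysed here.

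The 10279 genes that averaged 1 FPKM or more entered limma 3.58.1 (R 4.3.3) as log2(FPKM + 1), with a mean for each stage and moderated variances that follow the expression level (eBayes, trend). Benjamini-Hochberg adjustment covered all 10279, with a threshold of 0.05. The study names limma and states no test for these libraries. The fit was tested on simulated data. The study describes its expression profiles as from several mice per stage, while the labels only number the libraries and tie none to an animal, so p-values measure the spread between these libraries. The interferon-stimulated genes, the pathway and marker lists and the rules for naming genes were chosen with earlier results of these data known, and no set test was run. All 49 genes are named, with values per library for those past the threshold, with the largest differences, or without overlap between stages.

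The replicate numbers 1 and 2 recur at each stage. Deviations from the stage means correlated between libraries of the same number at 0.238 (A and PM), 0.307 (A and M) and 0.491 (PM and M) over the genes tested, so same-numbered libraries were taken as pairs. The labels do not give this pairing, and what same-numbered libraries share was not tested. A fit that includes the number as a block is given where it changed a call of an interferon-stimulated gene or of a marker whose test is described.

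The alternatives were a pseudocount of 0.1, no filter on low values, centring or quantile normalization of the libraries, the replicate block, only those stages being compared, a minimum log2 fold change of 1, and each library left out in turn. Leaving out libraries from the counts without overlap was added after seeing the data. Gene positions are from GENCODE M21 (GRCm38), and near-identical copies were searched with blastn 2.17.0 (at least 95% identity over at least 200 bases). Promoters are from RefSeq. Summaries used Python 3.11.15 with pandas 2.3.3. The values of 1 pathway gene that is not among the 49 are not reported here.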

Additional observations from a re-analysis of the deposited data

How the results depend on the processing

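The precision of these results is limited by 2 libraries per stage and, for genes near 1 FPKM, by depth. Between PM- and A-LMSCs, 1 interferon-stimulated gene passed the threshold, 2 when only the stages compared were fitted, 0 without the filter on low values, and 0 to 2 with 1 library left out. Between M- and A-LMSCs, 0 passed, and 4 with the replicate block. That count also moved with M-LMSC replicate 1 left out, in a fit that keeps a single M-LMSC library. With pairing by replicate, limma called 403 genes of all tested in this comparison, against 7 without it, 30 against 4 for PM- against A-LMSCs, and 43 against 3 for M- against PM-LMSCs. The replicate block changed no other call of an interferon-stimulated gene. The median log2 fold change of the tested genes of the set ran from 0.22 (without M-LMSC replicate 2) to 0.61 (without M-LMSC replicate 1) for M- against A-LMSCs, and from 0.059 to 0.50 for M- against PM-LMSCs with the same libraries left out. The count of genes higher without overlap in M- than in PM-LMSCs was 21 of 49. Among the 28 tested it was 8, against 17.8% of genes tested. Leaving out 1 library can only raise such a count. Of the 49, it was 24 without M-LMSC replicate 2, against 35% of all genes above 0, and 40 without M-LMSC replicate 1, against 30.3%. It was 26 without PM-LMSC replicate 1, against 31%, and 32 without PM-LMSC replicate 2, against 24.6%. Among the genes of the set with the largest differences or with no overlap, and the 4 transcription factors, the sign of a log2 fold change turned in the following cases, never for a gene past the threshold, where the alternative itself has fewer libraries except for the pseudocount. With 1 library left out, PM against A ran for Ifitm2 from -0.22 to 0.083 (0.0055 without A-LMSC replicate 1, 0.083 without PM-LMSC replicate 1), for Ifit3 from -0.024 (without A-LMSC replicate 2) to 0.69, for Oas1a from -0.092 to 0.065 (without A-LMSC replicate 2, and 0.047 without PM-LMSC replicate 1), and, without PM-LMSC replicate 2 at the lower end, for Irf9 from -0.013 to 0.14 and for Stat2 from -0.0081 to 0.21. M against A ran for Trim25 from -0.44 to 0.31 (without A-LMSC replicate 1, and 0.023 without M-LMSC replicate 1) and for Irf7 from -0.12 (without M-LMSC replicate 2) to 0.95. M against PM ran for Irf7 from -0.49 (without M-LMSC replicate 2) to 0.58, for Ifi27l2a from -1.21 to 0.59 (without M-LMSC replicate 1), and for Eif2ak2 from -0.22 to 0.19 (without M-LMSC replicate 2, and 0.11 without PM-LMSC replicate 1). With a pseudocount of 0.1 the value of Irf7 for M against PM was -0.020, and the cause was not tested. Centring, quantile normalization and the threshold on the fold change turned no direction among these genes. Of the other tested genes of the set, the sign turned with some library left out for 2 of 4 in PM against A (Ifit2 and Lgals3bp), 2 of 6 in M against A (Ifit2, -0.056 without M-LMSC replicate 1, and Helz2, -0.14 without M-LMSC replicate 2) and 8 of 12 in M against PM, none of them past the threshold. Helz2, whose M to A value was near 0, also turned with centring and with quantile normalization.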
